A study of Mus musculus with 4 samples.

Results

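The probes described here are the most CpG-dense of a mouse promoter and CpG island array. They are the array probes, other than controls, whose own sequence holds at least 5 CpG dinucleotides (a C followed by a G on the same strand) and whose input DNA signal was well above background on all 4 arrays. Of 520554 probes, 13777 held at least 5 CpG and 7115 of these met the input rule as well; they are called CpG-rich below. They were compared with 321284 probes of 0 to 4 CpG that met the same input rule and carried no outlier flag. The series measured DNA methylation in mouse leukaemic cells by methylated DNA immunoprecipitation (MeDIP): an antibody to 5-methylcytosine pulled down methylated fragments, which were hybridised in Cy3 against unselected input DNA from those cells in Cy5. Its 4 groups had 1 array each: untreated WT cells, untreated KO cells, and WT and KO cells given decitabine. Values listed for the 4 arrays follow that order throughout. The dose was 20 nM, repeated each 24 h over 3 days, and cells were collected at 72 h. By their source names the KO cells lack Mll5, while their genotype field names HOXA9, so the labels disagree on the deleted gene. The labels enter the cell line as MII5 in all groups, and all cells grew with interleukin-6, interleukin-3 and stem cell factor. Both the MeDIP and the input DNA went through whole-genome amplification before labelling. With 1 array a group there is no replicate check, and no p-value or error of a condition can be given for the comparisons of arrays; slide and group cannot be told apart.

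In mammals cytosine is methylated mostly at CpG. Most of the genome has lost CpG and carries methylation at those that are left, whereas CpG islands, the dense stretches at most promoters, are usually free of it. DNA methyltransferases copy the methylation of the old strand onto the new one, and decitabine, a cytidine analogue built into DNA, traps these enzymes so that methylation is lost as cells divide. The antibody used in MeDIP binds more to fragments with several methylated cytosines, so signal at a CpG-dense fragment depends on how many of its CpG are methylated.

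The sequences of a few of these probes are shown because they carry the patterns described below. All are 45 bases long, read 5′ to 3′ as printed on the array from the plus strand of mm9, with each CpG in capitals. L3mbtl3, Lmln and 4930506M07Rik had MeDIP signal well above background on all 4 arrays. The probe named mmu-mir-715 holds as many CpG as that of L3mbtl3 and had no such signal on any array. Map3k1 and H2afz rose with decitabine or in KO cells, and Unc5a fell with decitabine in WT cells but not in KO cells. Sox17 and Camk2g had signal on the KO decitabine array only. Gnai1, Lrrc4 and Fcho2 hold the most CpG of all.
L3mbtl3, chr10:26094540-26094584: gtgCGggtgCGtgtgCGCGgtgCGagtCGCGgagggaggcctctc
mmu-mir-715, chr17:39981777-39981821: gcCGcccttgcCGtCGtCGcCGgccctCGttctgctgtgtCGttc
Lmln, chr16:33062780-33062824: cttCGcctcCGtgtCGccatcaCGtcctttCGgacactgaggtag
4930506M07Rik, chr19:59149640-59149684: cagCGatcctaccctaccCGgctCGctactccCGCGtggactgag
Map3k1, chr13:112598265-112598309: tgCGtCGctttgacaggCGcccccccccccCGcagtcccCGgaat
H2afz, chr3:137527352-137527396: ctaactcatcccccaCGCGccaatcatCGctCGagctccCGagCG
Unc5a, chr13:55050065-55050109: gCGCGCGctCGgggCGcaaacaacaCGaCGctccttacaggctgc
Sox17, chr1:4483711-4483755: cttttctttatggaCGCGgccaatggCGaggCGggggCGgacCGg
Camk2g, chr14:21613118-21613162: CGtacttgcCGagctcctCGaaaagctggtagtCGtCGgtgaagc
Gnai1, chr5:17866351-17866395: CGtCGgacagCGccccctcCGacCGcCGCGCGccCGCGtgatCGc
Lrrc4, chr6:28782623-28782667: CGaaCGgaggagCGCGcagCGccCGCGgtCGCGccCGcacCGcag
Fcho2, chr13:99584735-99584779: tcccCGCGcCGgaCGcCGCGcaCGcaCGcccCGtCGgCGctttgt

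The CpG-rich probes lay almost entirely in sequence dense in CpG, and most of them near gene starts. Of the 7115, 7061 matched mm9 exactly at the place the array design gives, 43 had no place and no exact match, and 11 lay on contigs not joined to a chromosome. The 500 bp around each probe were read, a window that includes the probe and so the CpG it was chosen for. In these windows the median ratio of observed to expected CpG was 0.88, against 0.26 around probes of 0 to 4 CpG. A ratio of at least 0.6 with at least 50% G and C was found in 96.9% of them, against 16.0%. The median distance of the CpG-rich probes to the nearest annotated transcript start was 176 bp, against 1403 bp, and 78.5% lay within 500 bp of one, against 24.5%. In the gene annotation 31.0% lay in untranslated exons, 25.2% in coding exons, 22.6% in introns, 17.8% between genes and 3.43% in other exons. They fell into 5378 groups of probes at most 1000 bp apart, of which 4067 held 1 such probe and 295 held 3 or more.

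The input rule itself took fewer probes as CpG rose. It kept 61.7% of probes without CpG, 63.8% of those with 4 CpG, 57.8% with 5, 48.04% with 6, 40.9% with 7 and 31.7% with 9. The KO decitabine array passed the fewest: the input of all 13777 probes of at least 5 CpG was well above background for 81.6% on the WT untreated, 66.3% on the KO untreated, 79.5% on the WT decitabine and 52.9% on the KO decitabine array. Among the CpG-rich probes 2171 were printed as 2 spots. The ratio of MeDIP to input, on the log2 scale, had an SD between such spots of 0.25, 0.14, 0.15 and 0.20 on the 4 arrays where both spots had MeDIP well above background; this is the error of a spot within an array and not of a culture.

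MeDIP signal well above background was rare at the CpG-rich probes without treatment and more frequent with it. The level called well above background was not the same on each array, nor for each probe of an array. A signal of 1682 at Grrp1 was not called on WT untreated, though 1609 at Fmnl3 was. On KO untreated 1212 at Unc5a was not called. On WT decitabine 1198 at Unc5a was called, and on KO decitabine 942 at a probe by Ism1. The part of this in the shares, and in counts of signal on decitabine arrays only, was not tested. On the WT untreated array 187 of 7115 (2.63%, exact 95% interval 2.27% to 3.03%) were well above background in the MeDIP channel, and on the KO untreated array 309 (4.34%, 3.88% to 4.84%). With decitabine the number was 1169 in WT cells (16.4%, 15.6% to 17.3%) and 1605 in KO cells (22.6%, 21.6% to 23.5%). The 4 intervals did not overlap, though they cover the counting of probes only, and neighbouring probes are not independent. Probes of 0 to 4 CpG gave 4.11%, 4.08%, 14.2% and 15.9% in the same order. The scanner software had put a surrogate, a small stand-in value, in place of the MeDIP signal of spots at background. It did so in 84.9%, 72.8%, 49.5% and 39.6% of CpG-rich probes, the majority on the untreated arrays only. For these probes a ratio is a bound set by the input.

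The input channel differed between the arrays as well. The median processed input signal of the CpG-rich probes was 966 on the WT untreated, 621 on the KO untreated, 791 on the WT decitabine and 569 on the KO decitabine array. Relative to the median of all kept probes on the same array it stood 0.71, 0.48, 0.80 and 0.11 higher on the log2 scale. The KO decitabine array therefore held the CpG-rich probes hardly above the rest in input, unlike the other 3. The median MeDIP signal was 325, 312, 258 and 355. The log2 ratio of MeDIP to input, centred on each array's median over all kept probes, had a median of -0.95 (interval of the median -0.98 to -0.92), -0.61 (-0.64 to -0.58), -0.74 (-0.76 to -0.72) and 0.13 (0.11 to 0.15). CpG-rich probes thus lay below the array median on 3 arrays and above it on KO decitabine.

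**Figure D1:**
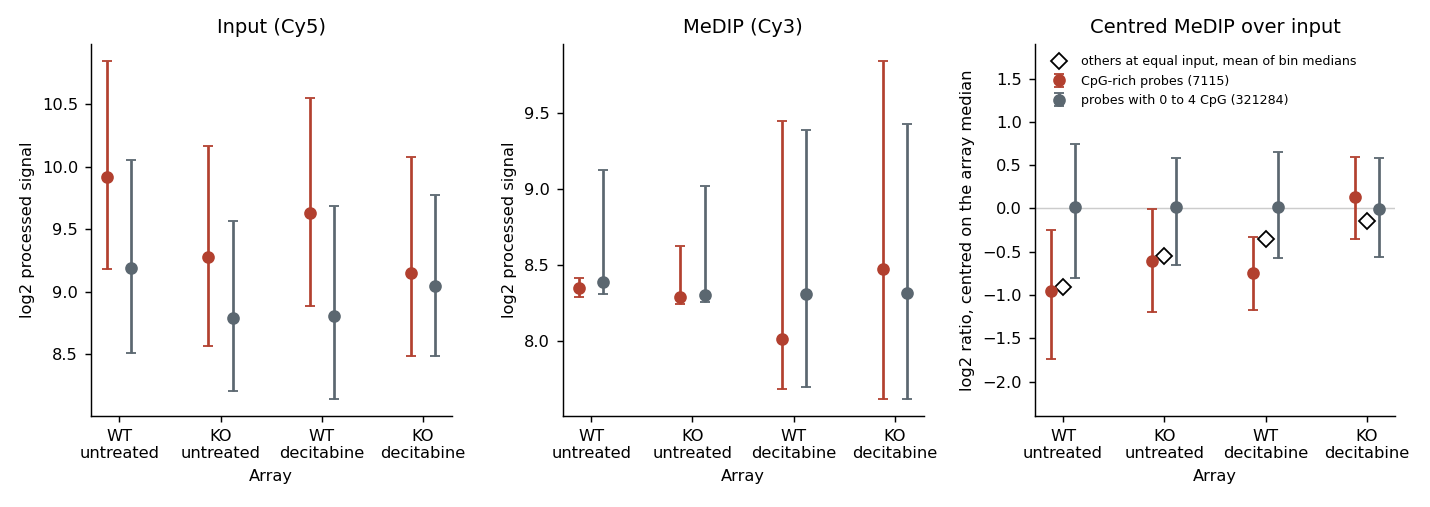
Input signal, MeDIP signal (log2 processed signal) and centred log2 ratio on each of the 4 arrays; points are medians over probes and bars run from the lower to the upper quartile, in red for the 7115 CpG-rich probes and grey for the 321284 probes of 0 to 4 CpG, with open diamonds for the latter at equal input. The red median of the ratio is below the grey on 3 arrays and above it on KO decitabine, where the input medians are closest.

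Because the ratio of a dim spot falls as its input rises, the CpG-rich probes were set beside other probes of equal input on the same array, in 20 bins that each held an equal share of the CpG-rich probes by input signal. The median ratio of the CpG-rich probes less the mean of the bin medians of the others was -0.04 on the WT untreated, -0.06 on the KO untreated, -0.39 on the WT decitabine and 0.28 on the KO decitabine array. This sets a median over all CpG-rich probes against a mean of medians, which are unlike summaries. Taken bin by bin, which compares like with like, the difference of the medians averaged -0.22, -0.14, -0.47 and 0.19. CpG-rich probes were lower in 20 of 20 bins on each of the first 3 arrays, and higher in 12 of 20 on KO decitabine. The direction was thus the same on the untreated and WT decitabine arrays and opposite on KO decitabine.

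The share with MeDIP well above background, which uses no surrogate value, had the same directions. At equal input the others reached 7.58% on the WT untreated, 7.40% on the KO untreated, 26.6% on the WT decitabine and 20.4% on the KO decitabine array. The CpG-rich probes less the others came to -4.96, -3.06 and -10.2 percentage points on the first 3 arrays and 2.20 on the last, where the share was higher in 7 bins and lower in 13. With bins set by the mean input of the 4 arrays, the others reached 25.4% on KO decitabine, and the CpG-rich probes were 2.89 points below them there too. The direction of the share on that array thus depended on which input set the bins, while that of the ratio, 0.26 with the mean input, did not. The part of its lower input at CpG-rich probes was not tested.

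**Figure D2:**
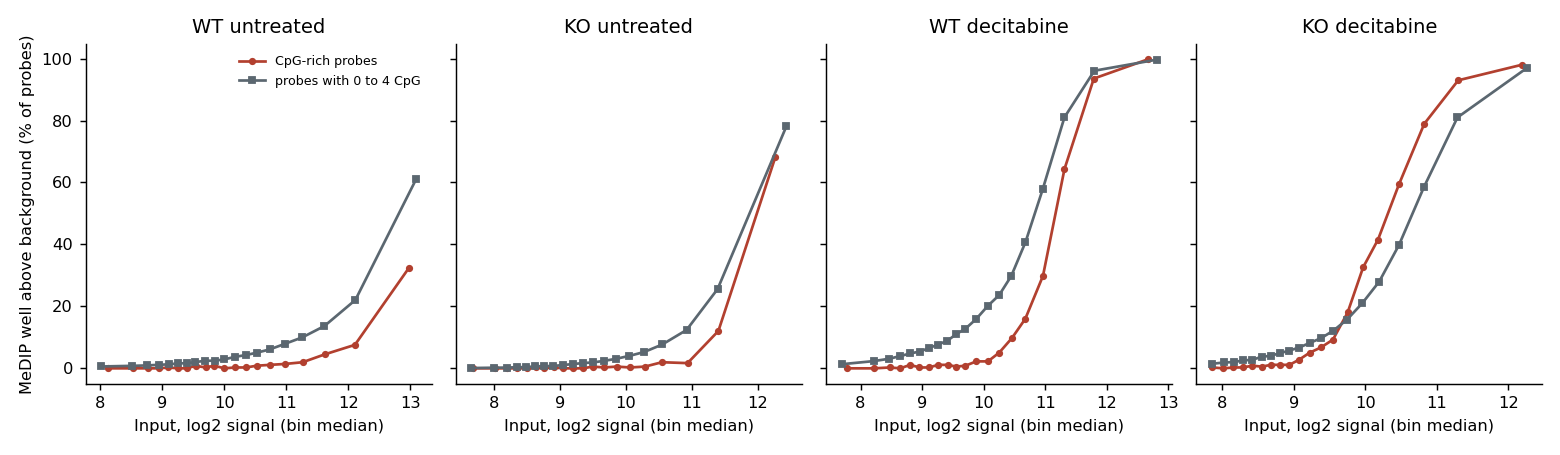
Share of probes with MeDIP well above background against the median log2 input signal of 20 bins, 1 panel for each array, for CpG-rich probes (red circles) and probes of 0 to 4 CpG (grey squares). The share climbs with input on every array; red lies below grey on the untreated arrays and over most of the WT decitabine array, and above grey in the upper bins of KO decitabine, with 78.9% against 58.6% in the 18th bin.

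The rise of the signal with input is seen in single bins, picked after their values were known. On the WT decitabine array none of the CpG-rich probes of the lowest input bin had MeDIP well above background, against 64.3% in bin 18 and 99.7% in bin 20. In bin 15 of the same array the share was 9.83% of CpG-rich and 29.8% of other probes. In bin 15 of the KO decitabine array it was 32.6% and 21.0%. The 2 kinds of probe changed places between these arrays, while in the lowest bins few probes of either kind had signal.

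Equal input is not equal composition. The median CpG-rich probe held 68.9% G and C and 97.2% were 45 bases long, against 42.6% G and C and 25.4% for the others. Strata of equal input, here in 5 coarser bins, and equal number of G and C bases held 6789 to 6858 of the 7115. Within them the difference in ratio turned positive on all arrays, at 0.18, 0.07, 0.10 and 0.21. Stratum by stratum it averaged 0.04, 0.02, 0.06 and 0.16. With 20 input bins in place of 5 it averaged 0.008, 0.03, 0.07 and 0.17. The shares with MeDIP well above background came closer together, at 2.75% and 4.24%, 4.46% and 6.13%, 16.9% and 17.4%, and 22.7% and 21.3% (CpG-rich first). Probe length was not matched in these strata, so the percentage of G and C could still differ, here and wherever equal G and C is named below. At an equal number of G and C bases the ratio of CpG-rich probes was thus the higher on each array, though with the finer bins by next to nothing on WT untreated. Their share with signal was the lower on 3 of the arrays.

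Among 45-base probes with 27 to 33 G and C bases, input fell as CpG increased up to 6, and the ratio rose on 3 of the 4 arrays. The median number of G and C bases still rose within this range, from 28 to 32. On the WT untreated array the median log2 input was 10.92 with 0 to 1 CpG (5393 probes), 9.99 with 5 (3539), 9.77 with 6 (1381) and 9.88 with 7 or more (539). The median ratio there was -1.57, -1.0, -0.83 and -0.90. On the KO untreated array the ratio went from -1.05 with 0 to 1 CpG to -0.64 with 5 and -0.54 with 7 or more. On the WT decitabine array it was nearly level, at -0.68, -0.74 and -0.75. On the KO decitabine array it rose from -0.23 to 0.07 and 0.21. The share with MeDIP well above background fell up to 6 CpG on each array. On WT decitabine it was 38.2% with 0 to 1 CpG, 17.2% with 5, 15.9% with 6 and 14.7% with 7 or more, and on KO decitabine 37.8%, 22.2%, 20.4% and 23.0%.

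**Figure D3:**
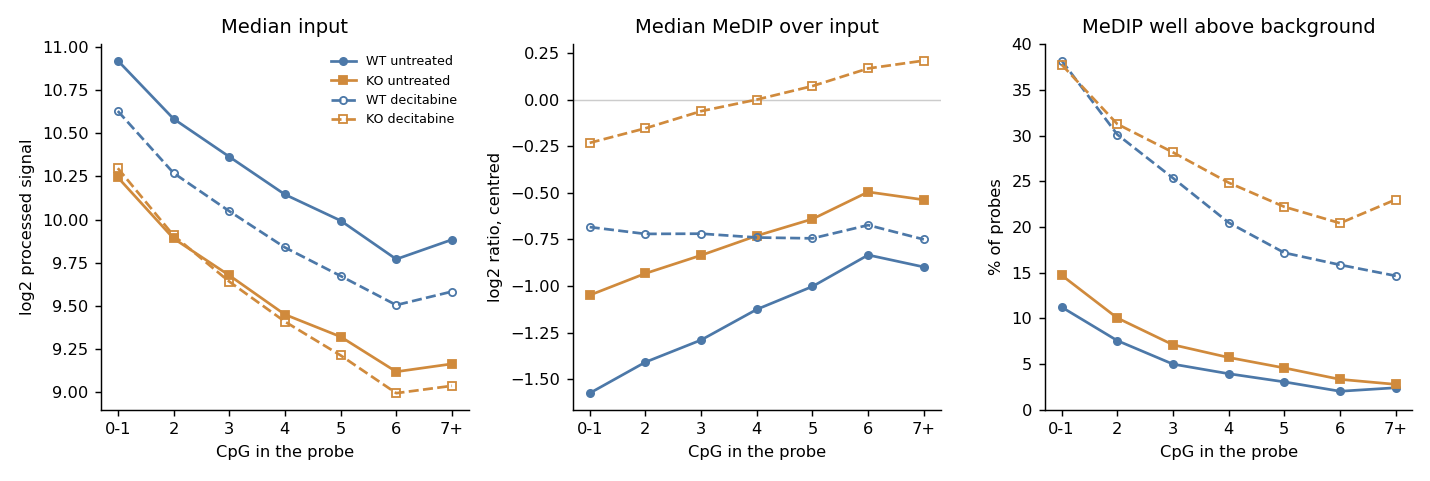
Median log2 input, median centred log2 ratio and share of probes with MeDIP well above background by the number of CpG, for 45-base probes with 27 to 33 G and C bases; blue is WT, orange KO, filled markers untreated and open markers decitabine. Input and share fall up to 6 CpG on all 4 arrays, while the ratio is higher with 7 or more CpG than with 0 to 1 on 3 arrays and nearly level on WT decitabine.

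The 5 CpG limit is not a step in the data. Just outside it, the 8829 probes of 4 CpG had median ratios of -0.89, -0.61, -0.64 and -0.03 (same order of arrays). Just inside it, the 4346 probes of 5 CpG had -0.95, -0.62, -0.72 and 0.07. The 982 probes of 7 or more CpG had -1.04, -0.63, -0.83 and 0.28, so the gap between the decitabine arrays was wider in them. Their share with MeDIP well above background was 16.1% on WT decitabine and 26.7% on KO decitabine.

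Signal also went with whether C or G prevails in the printed probe, a feature looked at only after the values were known. The 45-base CpG-rich probes were divided by how many more C than G they hold, which leaves the total of G and C alike (median 68.9% in each class). Of 1928 probes with at least 6 more C than G, 140 had MeDIP well above background on WT untreated (7.26%), 236 on KO untreated (12.2%), 780 on WT decitabine (40.5%) and 985 on KO decitabine (51.1%). Of 1254 probes with at least 6 more G than C, the numbers were 14 (1.12%), 32 (2.55%), 106 (8.45%) and 184 (14.7%). The C-rich class thus supplied most of the signal on each array. Its median input was higher too, at 2056, 1226, 1634 and 1128 against 876, 561, 720 and 507. Other 45-base probes were divided in the same way, with 16.7%, 19.08%, 51.5% and 50.2% of the C-rich and 2.75%, 5.16%, 19.2% and 20.2% of the G-rich class above background. The parts of probe composition and of input in the signal were not tested.

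**Figure D4:**
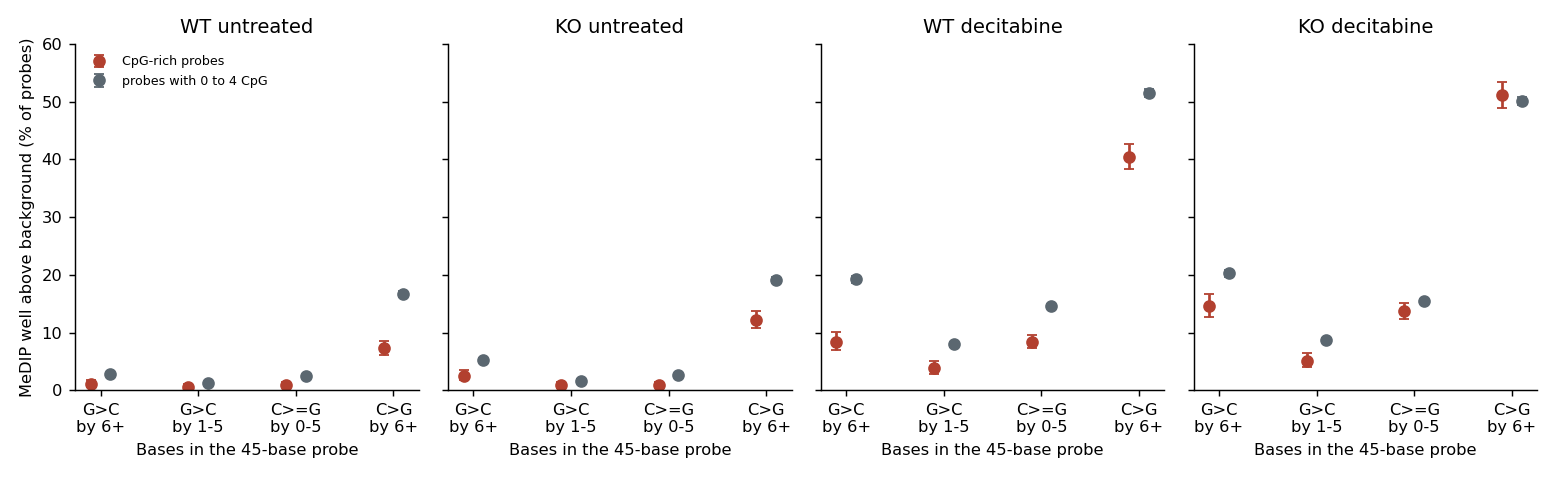
Share of 45-base probes with MeDIP well above background on each array, by how far G outnumbers C or C outnumbers G in the probe; red is CpG-rich, grey 0 to 4 CpG, and bars are exact 95% intervals over probes. The class with at least 6 more C than G stands above the other classes on all 4 arrays, with 51.1% of CpG-rich probes on KO decitabine against 14.7% in the class with at least 6 more G.

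Of the 7115 CpG-rich probes, 5420 (76.2%) had MeDIP well above background on no array, 748 (10.5%) on the 2 decitabine arrays only, 520 (7.31%) on KO decitabine only, 153 (2.15%) on all but WT untreated, 85 (1.19%) on WT decitabine only and 154 (2.16%) on all 4. For probes of 0 to 4 CpG the shares, in this order of patterns, were 81.3%, 6.79%, 4.03%, 1.30%, 2.34% and 2.66%. The 154 CpG-rich probes with signal on all 4 arrays are the only ones whose ratios were measured throughout. Their median log2 ratio was -1.11 on WT untreated, -0.68 on KO untreated, -0.01 on WT decitabine and 0.81 on KO decitabine. The ratio was highest on KO decitabine in 120 of them and lowest on WT untreated in 110. The 8533 other probes above background on all 4 arrays had medians of 0.17, 0.11, 0.62 and 0.85, so the CpG-rich probes lay below them except on KO decitabine, where the medians were close. In those 8533 the ratio was highest on KO decitabine in 5294 and lowest on WT untreated in 4482.

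Only 2 groups of at least 3 neighbouring CpG-rich probes had as many members above background on all 4 arrays as not, or more. The first, named C77370 (chrX:101395430-101396410), had 4 probes and a mean log2 ratio of -0.04 ± 0.99, 0.09 ± 0.85, 0.25 ± 0.91 and 1.0 ± 0.77 (SD over its 4 probes). Its brightest probe, in an untranslated exon 262 bp from the transcript start, had MeDIP signals of 9952, 11424, 13324 and 15204 over inputs of 6880, 5395, 5756 and 6750. MeDIP exceeded input on each array, and 2 of the 4 probes carried it on all 4. The second lay at L3mbtl3, which encodes a chromatin protein with malignant brain tumour repeats (chr10:26093568-26094584). Its 3 probes had ratios of -1.84 ± 0.54, -0.93 ± 0.45, -0.00 ± 0.53 and 0.50 ± 0.45. The L3mbtl3 probe printed above, in an intron, had MeDIP signals of 3113, 6097, 10662 and 10121 over inputs of 10968, 9439, 9458 and 11245, so MeDIP rose while input was nearly level. The mmu-mir-715 probe had MeDIP signals of 385, 522, 530 and 781 over inputs of 4575, 6705, 3807 and 5031, not well above background on any array.

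As that rule named few regions, the single probes above background on all 4 arrays that stood furthest above other probes of equal input are also given; they were chosen after their values were seen. Wnt5b, which encodes a secreted Wnt ligand, had a 7-CpG probe in an untranslated exon (chr6:119493985-119494029). Its MeDIP signals were 1977, 2157, 2257 and 2159 over inputs of 562, 387, 488 and 330. MeDIP was level across the 4 arrays and several times the input on each. Lmln, which encodes a metallopeptidase, had a coding-exon probe with MeDIP of 6651, 4132, 4152 and 4852 over inputs of 1726, 1948, 1325 and 2519. Olig2, the transcription factor of the oligodendrocyte lineage, had a coding-exon probe (chr16:91227422-91227466) with 8545, 5444, 5528 and 8211 over 3926, 3100, 2903 and 3026. In these 3 probes MeDIP was already high without treatment and did not climb from WT untreated to KO decitabine as it did in L3mbtl3. Further probes of this kind lay at 4930506M07Rik, Rnf167, 1300014I06Rik and Ly6h.

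At the other end, Aldoa, which encodes the glycolytic enzyme aldolase A, had an intronic probe 188 bp upstream of the nearest transcript start (chr7:133942934-133942978) with MeDIP signals of 13546, 39936, 89093 and 129332 over inputs of 174343, 186005, 160801 and 160391. Its MeDIP rose at each step from WT untreated through KO untreated and WT decitabine to KO decitabine while input was nearly level. Map3k1, which encodes a kinase of the JNK and ERK cascades, showed the same order in its intronic probe, with MeDIP of 2420, 6857, 13749 and 35070 over inputs of 38776, 33293, 33408 and 22598. The Map3k1 probe holds a long run of C, as printed above.

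Decitabine was compared with no treatment in WT cells over the 183 CpG-rich probes with MeDIP well above background on both arrays. The ratio was at least 2-fold higher with decitabine in 87 of them (47.5%), where 25.7% of all kept probes so measured were called, and at least 2-fold lower in 4 (2.19%), where the background is 2.86%. As each array is centred on its own median, a change in ratio common to all probes would not show, here or in the comparisons below. A rise is thus relative to the median probe of each array and no measure of methylation gained. The median difference was 0.92 on the log2 scale (interval of the median 0.76 to 1.12), against 0.40 for other probes and 0.81 for others of equal input, of which 38.7% rose at least 2-fold. In the MeDIP channel these 183 probes rose by a median of 0.93 and in the input they changed by -0.28. A further 986 CpG-rich probes (13.9%) were above background on the decitabine array only, where the background is 10.5%.

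Mfn2, which encodes a mitochondrial fusion GTPase, had the largest rise, at a 5-CpG probe in an untranslated exon over the transcript start (chr4:147278794-147278838). Its MeDIP went from 2497 to 17992 and its input from 29335 to 19413, a log2 difference of 3.31. The probe AW548124, 266 bp upstream of Pkdcc (chr17:83614335-83614379), had MeDIP of 2045 and 13195, a difference of 2.90, and Aldoa, above, one of 2.70. The largest fall was at Unc5a, which encodes a netrin receptor, 685 bp upstream of its start. MeDIP there went from 7133 to 1198 and input from 952 to 472, a difference of -1.70. At a probe named for Rbm7, an RNA-binding protein gene, that lies by the start of Gm5617, MeDIP went from 3915 to 1689, a difference of -1.06. Each of these is larger than the SD of 0.26 that the difference had between duplicate spots, which is a technical error only. Among C-rich 45-base probes the share at least 2-fold higher was 52.9% (74 of 140) for CpG-rich and 51.7% for other probes, shares that lay close together. These 2 classes differ in median G and C, 68.9% against 55.6%, here and in the comparisons below. With a loess curve fitted within each array, 21 of the 183 rose (11.5%, against 5.77% of other probes) and 21 fell. With centring on probes bright in MeDIP on all 4 arrays 49 rose (26.8%, against 12.9%) and 8 fell.

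In KO cells the same comparison over 307 CpG-rich probes gave 236 at least 2-fold higher (76.9%), where the background is 40.2%, and none lower, where it is 0.267%. The median difference was 1.51 (1.40 to 1.66), against 0.83 for other probes and 1.01 for others of equal input, of which 50.3% rose at least 2-fold. MeDIP rose by a median of 1.11 and input changed by -0.08. A further 1298 (18.2%) were above background with decitabine only, where the background is 12.1%. Mfn2 led here too, with MeDIP of 6465 and 34152 and input of 21449 and 10397, a difference of 3.83. At Akr7a5, which encodes an aldehyde reductase, an intronic probe (chr4:138867011-138867055) had MeDIP of 2500 and 13847, a difference of 3.57, and Map3k1 a difference of 3.29. The duplicate-spot SD of this difference was 0.19. Among C-rich 45-base probes, not matched in G and C, 83.0% of CpG-rich and 63.7% of other probes were at least 2-fold higher. With loess, 49 rose (16.0%, against 1.96% of other probes) and 23 fell. In the MeDIP channel alone 179 rose (58.3%, against 21.3%) and none fell, and with centring on bright probes 122 rose (39.7%, against 8.53%) and 1 fell.

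KO cells were compared with WT cells without treatment over 154 CpG-rich probes. The ratio was at least 2-fold higher in KO cells in 24 (15.6%), where the background is 7.66%, and at least 2-fold lower in 4 (2.60%), where it is 4.99%. The median difference was 0.44 (0.26 to 0.54), against 0.07 for other probes and 0.20 for others of equal input, of which 9.05% rose at least 2-fold. The input changed by a median of -0.52 and MeDIP by 0.16. AW548124, with a difference of 1.94, led, followed by Fmnl3, which encodes a formin, with MeDIP of 1609 and 4529 and a difference of 1.68. Dpy19l3 fell most, from MeDIP of 5949 to 1784, a difference of -1.62, followed by 1110006G06Rik, from 10612 to 3426 and -1.27. All 24 were 45-base probes with at least 6 more C than G, a class that held 118 of the 154. In that class 20.3% of the CpG-rich probes rose at least 2-fold, against 12.3% (309 of 2511) of other probes. A further 155 CpG-rich probes (2.18%) were above background in KO cells only, where the background is 1.43%. With normexp background correction 73 rose (47.4%, against 29.0% of other probes) and none fell.

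With decitabine the comparison of KO with WT cells covered 1084 CpG-rich probes. The ratio was at least 2-fold higher in KO cells in 519 (47.9%), where the background is 10.0%, and at least 2-fold lower in 5 (0.461%), where it is 1.41%. The median difference was 0.96 (0.91 to 1.02), against 0.30 for other probes and 0.36 for others of equal input, of which 10.7% rose. The input of these CpG-rich probes changed by a median of -0.49 and that of other probes by -0.09, while MeDIP changed by 0.29 and 0.04. The part of the input in the difference was not tested. In the MeDIP channel alone 91 were at least 2-fold higher (8.39%, against 1.64% of other probes) and 5 lower. With loess 224 rose (20.7%, against 1.86%) and 26 fell. Among C-rich 45-base probes, not matched in G and C, 52.9% of CpG-rich and 15.9% of others rose.

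Nog, which encodes the BMP antagonist noggin, rose most, at a 6-CpG probe in an untranslated exon (chr11:89163525-89163569). Its MeDIP signals on the 4 arrays were 316, 516, 1349 and 4139 and its inputs 5614, 2818, 5554 and 1203, a difference of 4.03 between the decitabine arrays. Both channels moved, in opposite directions. Slc16a6, which encodes a monocarboxylate transporter family member, had an 8-CpG coding-exon probe 66 bp from the start of Arsg with MeDIP of 1298 and 3369 and input of 3710 and 1036, a difference of 3.42. H2afz, which encodes the histone variant H2A.Z, had a probe 77 bp upstream of its start with MeDIP of 1533 and 4433 and input of 4021 and 1372, a difference of 3.29. Grrp1 fell most, with MeDIP of 4277 and 2359 and a difference of -1.28, followed by the probe AK077398 at Ism1, which encodes isthmin, with -1.21. A further 521 CpG-rich probes (7.32%) were above background in KO cells only, where the background is 4.28%. They include Sox17, an endoderm and endothelial transcription factor, with MeDIP of 318, 359, 207 and 3534 over inputs of 1510, 1175, 1868 and 483, and Camk2g, a calmodulin-dependent kinase, with 358, 466, 504 and 1927 over 443, 417, 368 and 346. On WT decitabine alone, a probe named for Dnajc12 that lies in an untranslated exon 32 bp from the start of Sirt1, an NAD-dependent deacetylase gene, had 433, 305, 2087 and 247 over 605, 452, 453 and 464.

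**Figure D5:**
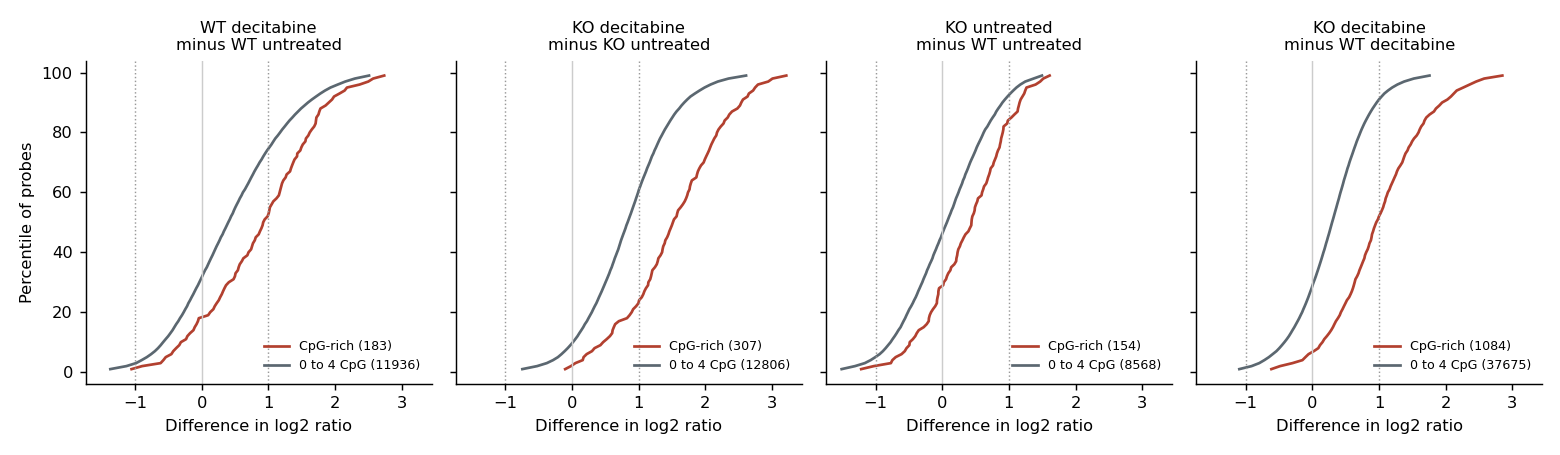
Distribution of the difference in log2 ratio between 2 arrays (x axis) as percentiles of probes (y axis), for probes with MeDIP well above background on both arrays, 1 panel for each comparison; red is CpG-rich, grey 0 to 4 CpG, with their numbers, and dotted lines mark 2-fold. The red curve lies to the right of the grey at the median of each panel, for example at 0.96 against 0.30 between the decitabine arrays and 1.51 against 0.83 for decitabine in KO cells.

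The comparison of the 2 genotypes with decitabine also gave the only named neighbourhoods of at least 3 CpG-rich probes measured on both arrays. Canx, which encodes the chaperone calnexin (chr11:50138862-50139193), had a mean log2 ratio of -0.56 ± 0.44 on WT decitabine and 1.0 ± 0.46 on KO decitabine (SD over 3 probes). Ppm1a, a protein phosphatase gene (chr12:73862367-73862758), had -0.43 ± 0.40 and 0.97 ± 0.55 over 3 probes. Syncrip, which encodes an RNA-binding protein of the hnRNP family (chr9:88376350-88378019), had -0.54 ± 0.62 and 0.96 ± 0.37 over all 5 of its probes, while over the 3 measured on both arrays the difference was 1.21. Pkp4, a plakophilin gene (chr2:58999390-58999711), had -0.62 ± 0.53 and 0.48 ± 0.11 over 3. These neighbourhoods were picked as the largest rises between these arrays, and their probes are no replicates of a condition. On the untreated arrays at most 1 probe of each had signal.

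Across all 4 arrays, limma's additive model of genotype and treatment over all kept probes called no CpG-rich probe at a Benjamini-Hochberg adjusted p under 0.05, where 0% of all kept probes were called for decitabine and 0% for KO. The smallest adjusted p was 0.064 for decitabine and 0.381 for KO. At an unadjusted p under 0.05 it held 2181 CpG-rich probes (30.7%) for decitabine, against 20.1% of the others, and 1975 (27.8%) for KO, against 11.4%. All that is left to estimate its error is the interaction of the 2 factors, so that error is a departure from additivity and no spread between cultures. Under normexp the model called 280 CpG-rich probes higher with decitabine and 111 higher in KO. With centring on bright probes it called 404 and 10 higher, and 41 lower with decitabine. The share of all kept probes called under these settings was not counted, so these counts show nothing particular to CpG-rich probes.

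The 8 gene lists that were read held few CpG-rich probes each. Tumour suppressor genes had 30, of which none, 2, 7 and 10 were above background on the 4 arrays (33.3% on the last, against 22.6% of all CpG-rich probes). Hic1, a transcriptional repressor often methylated in tumours (chr11:74982174-74982678), had 3 probes, with mean log2 ratios of -2.64 ± 0.98, -2.0 ± 0.48, -1.42 ± 0.31 and 1.0 ± 0.14 (SD over probes). Its probes were above background in none, 1, 1 and 3 of 3, so the KO decitabine array stood apart from the other 3. Sfrp1, which encodes a secreted Wnt inhibitor, had 2 probes, of which none, 1, 2 and 2 were above background, with mean log2 ratios of 0.23 on WT decitabine and 1.46 on KO decitabine. The 2 probes of Rassf1 had none above background on any array, with mean log2 ratios of -1.04, -0.74, -1.34 and -0.28. Of the 2 of Cdkn1c, 1 was above background on each decitabine array and none without treatment.

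Developmental genes held by Polycomb, the complex that silences them through histone H3 lysine 27 methylation, had 43 CpG-rich probes, of which 2, 3, 5 and 9 were above background (4.65%, 6.98%, 11.6% and 20.9%, against 2.63%, 4.34%, 16.4% and 22.6% of all CpG-rich probes). Foxd1, a forkhead factor of kidney stroma outside these lists, had the most CpG-rich probes of any gene, 7, with mean ratios of -0.51, -0.47, -0.50 and 0.38 and 1, none, 2 and 3 above background. Foxl2, the forkhead factor of the ovary, had 6, with none, none, 2 and 3. Gata6, an endoderm and heart factor, had 5 and none on any array. Foxd3, a neural crest factor, had 1 of 3 above background on all 4.

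Imprinted genes, methylated on the allele of 1 parent, had 18 CpG-rich probes, of which 1, 1, 2 and 2 were above background. The Peg3 probe (chr7:6683071-6683115), in an untranslated exon of a paternally expressed zinc-finger gene, was the only imprinted one above background on all 4 arrays, with MeDIP of 2999, 3227, 4364 and 4717. Its ratio stood above other probes of equal input on each, by 1.16, 0.59, 0.21 and 0.66. The 4 probes of Grb10, which encodes a growth factor receptor adaptor, and the 3 of Gnas, which encodes a G protein subunit, had none above background. Germline genes, most of them silenced by promoter methylation in somatic cells, had 9, of which 1, 1, 2 and 2 were above background. That of Tex11, an X-linked meiotic gene (chrX:98254914-98254958), had MeDIP of 1839, 1699, 4314 and 4693 on the 4 arrays. Its ratio less that of other probes of equal input was -0.35, -0.62, -0.23 and 0.21.

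Housekeeping genes, whose islands are unmethylated, had 19 CpG-rich probes, of which 2, 1, 4 and 6 were above background, shares of 10.5%, 5.26%, 21.1% and 31.6%, against 2.63%, 4.34%, 16.4% and 22.6% of all CpG-rich probes. Germline genes had 11.1%, 11.1%, 22.2% and 22.2% and imprinted genes 5.56%, 5.56%, 11.1% and 11.1%, each resting on 1 or 2 probes. The HOXA cluster and its cofactors had 12, of which only 1, at Hoxa13, was above background and on KO decitabine alone (8.33%). Regulators of blood formation had 18, of which none, none, 2 and 5 were above background (11.1% and 27.8% on the decitabine arrays, against 16.4% and 22.6% of all CpG-rich probes); those at Runx1, a factor of blood stem cell emergence (3), and Gata2, a factor of stem and progenitor cells (2), had none. Genes of the DNA methylation machinery had 13, of which none, 1, 1 and 2 were above background (7.69%, 7.69% and 15.4% on the last 3 arrays, against 4.34%, 16.4% and 22.6%). The 2 of Dnmt3b, a de novo methyltransferase, had none on any array.

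Shares were also compared by position. Within 100 bp of a transcript start (2503 CpG-rich probes) the share above background was 3.00%, 4.79%, 17.6% and 23.6%. At over 2000 bp (640) it was 2.03%, 2.50%, 11.9% and 18.1%, with intervals that overlapped those near a start on the untreated arrays and not on the decitabine arrays. Median log2 input was lower there too, at 9.49 and 9.04 on the decitabine arrays against 9.71 and 9.22 near a start. On KO decitabine coding exons had 20.3% (18.5% to 22.2%) and introns 24.5% (22.5% to 26.7%), intervals that did not overlap. Their median log2 input was 9.11 and 9.18. The part of input in these shares was not tested. The 163 probes of chromosome X had 3.68%, 4.91%, 18.4% and 23.9%, against 2.61%, 4.35%, 16.4% and 22.6% on the autosomes, within counting error. The 36 CpG-rich probes in CpG-poor windows, where methylation is usual, had 1, none, 7 and 9 above background, while those in CpG-dense windows had 2.64%, 4.44%, 16.5% and 23.0%.

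The 6 probes with the most CpG, 11 each, lay at Gnai1, Lrrc4, Plxna1, Camk2b, Fcho2 and Fst. Only Gnai1, which encodes an inhibitory G protein subunit, and Fcho2, an endocytic adaptor gene, had signal on any array. Gnai1 had MeDIP of 309, 309, 657 and 1579 over inputs of 2288, 1718, 2224 and 1152, above background on KO decitabine alone. Fcho2 had 345, 1129, 1906 and 1342 over 1468, 1295, 1989 and 1824, above background on the 2 decitabine arrays. Lrrc4 had 307, 304, 204 and 194 over inputs of 233 to 295, near the surrogate level throughout.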

How the data were processed

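The authors deposited scanner output of 4 Agilent 2-colour arrays, 1 for each group, extracted with Feature Extraction (version 10.5 in the submitters' processing notes, 10.5.1.1 in the headers). Deposited intensities are linear processed signals. Per the file headers, the software subtracted and detrended background, put surrogates in place of dim signals and normalized the dyes. The deposited log ratio is on a log10 scale, Cy5 over Cy3. The deposited flags, 0 or 1 per spot and so of no scale, mark signal well above background, outliers and saturation. Dyes were not swapped, so dye bias is in every ratio.

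Here log2 Cy3 over Cy5 was averaged over spots of a probe and centred on the median of 328399 kept probes (input well above background and no outlier flag on all 4 arrays); no CpG-rich probe was lost to the outlier flag. CpG were counted in the deposited probe sequences. Probes were searched exactly in mm9 (the headers' build) and placed by GENCODE vM1 transcripts; context was read on a 500 bp window. Intervals are exact binomial ones for shares and order-statistic ones for medians, at 95%, over probes only. limma 3.58.1 (R 4.3.3; lmFit, eBayes, Benjamini-Hochberg) was fitted to all kept probes; Python 3.11.15 did the rest. Both steps were tested on simulated data. The number of arrays and the MeDIP signal limit precision.

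The members and lists were chosen with earlier results of these data known. Named by rule were neighbourhoods of at least 3 CpG-rich probes within 1000 bp (12 with the highest ratio, at least 50% of their probes above background on all 4 arrays; 5 largest rises and falls per comparison with 3 measured probes), up to 4 genes per list, and the probes of most CpG; few met it, so the leading single probes were added after seeing values.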

Additional observations from a re-analysis of the deposited data

Results flagged for a closer look

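With 1 array a group the difference between genotypes could not be tested, but the difference between CpG-rich and other probes at equal input moved in opposite directions with decitabine in WT and KO cells. The CpG-rich probes' own median ratio and share rose in both. Their median log2 ratio less the mean of the bin medians of the others, which are unlike summaries, changed by -0.35 in WT cells and by 0.34 in KO cells. Bin by bin, which compares like with like, it changed by -0.25 and 0.33. The share with MeDIP well above background, less that of others at equal input, changed by -5.24 percentage points in WT cells and by 5.26 in KO cells. With bins of mean input that share difference went from -4.32 to -7.46 in WT and from -3.10 to -2.89 in KO cells. At an equal number of G and C bases, with probe length not matched, it rose in both, from -1.49 to -0.49 and from -1.67 to 1.36. For the ratio, at equal input and equal number of G and C bases, stratum by stratum, the difference was 0.04 and 0.06 in WT and 0.02 and 0.16 in KO cells (untreated, then decitabine), so it no longer fell in WT cells. The input of CpG-rich probes over the array median was 0.71 and 0.80 in WT and 0.48 and 0.11 in KO cells; its part in the result was not tested.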

How the results depend on the processing

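No paired analysis was possible because each group has 1 array and the labels give no replicate numbers, and for the same reason no replicate could be left out. Below, values follow the order untreated WT and KO, then treated WT and KO. The difference in median log2 ratio from others at equal input was -0.18, -0.24, -0.33 and 0.0544 with normexp, 0.0943, 0.0636, -0.22 and 0.15 with loess, and -0.31, -0.41, -1.04 and -0.17 in the MeDIP channel alone. Means in place of medians gave -0.44, -0.29, -0.53 and 0.0694. Bin by bin it was -0.22, -0.14, -0.47 and 0.19. At an equal number of G and C bases, with probe length not matched and in 5 input bins, it was 0.18, 0.0680, 0.10 and 0.21, and stratum by stratum 0.0386, 0.0211, 0.0575 and 0.16. With 20 input bins the latter was 0.00812, 0.0324, 0.0672 and 0.17. Against probes of 0 CpG it was -0.17, -0.13 and -0.53 on the first 3 arrays, and with bins of mean input -0.27, -0.10 and -0.49. With 10 bins it was -0.0806 on WT untreated and -0.41 on WT decitabine. With 1 value per locus it was -0.0168 on KO untreated and 0.30 on KO decitabine, and with the deposited log ratio -0.00615 on KO untreated. From 4 CpG it was -0.37 and 0.19 on the decitabine arrays, and from 7 CpG -0.0791 on WT untreated and -0.47 and 0.42 on the decitabine arrays. The difference in share became -6.50, -4.01 and -12.1 percentage points on the first 3 arrays against 0 CpG and -1.49, -1.67 and -0.49 at equal G and C. With bins of mean input it was -4.32 on WT untreated, -7.46 on WT decitabine and -2.89 on KO decitabine. The cause of these moves was not tested.

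Counts at least 2-fold higher follow in the order decitabine in WT, decitabine in KO, KO over WT untreated and KO over WT with decitabine. They were 1757, 2780, 986 and 2748 over all CpG-rich probes (244, 78, 133 and 103 lower), which include those with a surrogate for MeDIP (39.6% to 84.9% on an array), whose ratio follows the input. Of the 321284 others 56243, 54661, 28119 and 29216 were so called. They were 40, 143, 2 and 219 at 3-fold, 210, 535, 53 and 1006 from 4 CpG, and 12, 25, 3 and 85 from 7 CpG, where the number of probes or the threshold differs by construction. Loess gave 21, 49 and 224 in the first, second and last, centring on bright probes 49 and 122 in the first 2, normexp 73 in the third, and the MeDIP channel alone 91 in the last. Centring on bright probes moved the median of all probes to -0.16, -0.10, -0.60 and -0.85 on the 4 arrays. limma's count for decitabine was 404 with it and 280 with normexp, and for KO 10 and 111. No share of all kept probes stands beside these counts. Of 90 values of named probes under other settings, 84 kept direction and side of 2-fold, 6 fell short of it and 0 reversed. Alternatives marked bin by bin, mean input and stratum by stratum were chosen after seeing the data, as were those for shares and for named probes.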

Other observations

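CpG-rich probes with a long run of C differed from those with a long run of G. Of the 7115, 64 held a run of at least 6 C and 61 a run of at least 6 G, with the same median G and C of 73.3%. On the 4 arrays, untreated WT and KO and then treated WT and KO, 7, 18, 33 and 50 of the 64 C-run probes had MeDIP well above background, against none, none, 2 and 10 of the 61 G-run probes. Their median input was 3968, 2413, 3095 and 1491 against 870, 611, 721 and 545. With decitabine, the C-run probes measured on both arrays rose at least 2-fold in 7 of 7 cases in WT cells. In KO cells 18 of 18 rose, and in KO over WT cells with decitabine 27 of 33. Over all kept probes so measured the shares were 25.7%, 40.2% and 10.0%. Among other 45-base probes with at least 6 more C than G, whose median G and C was 55.6%, they were 51.7%, 63.7% and 15.9%. Long runs were not examined in other probes, so these counts show nothing particular to CpG-rich probes. Without probes holding a run of 6, 80 of 176 rose in WT cells, 218 of 289 in KO cells, 20 of 148 in KO over WT cells without treatment and 491 of 1049 with decitabine. These classes were chosen after the sequences of the largest rises were seen.

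The GC box, the Sp1 family motif GGGCGG searched on both strands, was found in 12.4% of CpG-rich probes of 45 bases and in 3.32% of other probes of that length. Among CpG-rich probes, those with it had MeDIP well above background in 2.49%, 7.01%, 23.3% and 36.2% (in the same order) and those without in 2.65%, 3.96%, 15.5% and 20.6%. CpG-rich probes of at least 72% G and C had 2.68%, 6.48%, 20.9% and 32.1%, and those under 64% had 2.48%, 2.55%, 11.2% and 14.0%. The motif was not examined at equal G and C. Of the 6 other motifs searched, the ETS site CCGGAAG had 18.8% with and 22.6% without on KO decitabine, the E-box CACGTG 17.1% and 22.7%, the CRE TGACGTCA 11.8% and 22.6%, the HpaII site CCGG 21.5% and 23.2% and the NotI site GCGGCCGC 14.3% and 22.6%. The NRF1 motif was found in 6 probes only, 33.3% against 22.5%.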
